A study of Canis lupus familiaris with 23 samples.

Results

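The genes described here encode the structures that fix basal keratinocytes to the basement membrane of skin: the hemidesmosome, the laminin beneath it and the anchoring fibrils of the upper dermis. Members were taken by exact gene symbol and are 9 of the 21396 gene entries listed over the 23 libraries: COL17A1, COL7A1, ITGA3, ITGA6, ITGB4, LAMA3, LAMB3, DST and PLEC. Each matched 1 row in all 23 libraries. Their levels were followed through dog skin tissue and through epidermal organoids grown from it. RNA levels come from CEL-seq2 on the pooled RNA of many cells, in which barcoded primers tag each transcript at its 3′ end for counting.

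In the hemidesmosome, integrin alpha 6 (ITGA6) pairs with integrin beta 4 (ITGB4) and binds laminin-332 outside the cell. Inside, plectin (PLEC) and the epithelial form of dystonin (DST, also called BPAG1 or BP230) tie the integrin to the keratin filaments, and collagen XVII (COL17A1, also called BP180), which spans the membrane, joins the plaque to the laminin. Laminin-332, to which LAMA3 and LAMB3 contribute chains, also binds integrin alpha 3 (ITGA3), which pairs with beta 1 and connects to actin rather than to keratin. Collagen VII (COL7A1), made by keratinocytes and fibroblasts and known to respond to Tgf-beta in skin cells, forms the anchoring fibrils that hold the basement membrane to the dermis. Loss of these proteins, or autoimmunity against some of them, blisters the skin.

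The series holds 12 groups. The tissues, with 2 libraries each, were whole skin, hair follicles pooled from the anagen (growing) and telogen (resting) phases, and interfollicular epidermis, the skin surface between follicles. Organoids were taken at day 7, either early (passages 0 to 1) or at mid-term (passages 3 to 6, called later here). For organoids grown from follicles, 3 early and 2 later libraries had a Tgf-beta inhibitor in the medium, and the labels of 2 early and 2 later libraries name none. The organoids from interfollicular epidermis, 1 early and 1 later library, had the inhibitor in both and no replicate. Later follicle-derived organoids in differentiation medium gave 6 libraries: 2 with the complete medium, 2 that lacked Noggin and R-Spondin-1, and 2 that lacked Forskolin as well. Of these, Forskolin activates cAMP production, R-Spondin-1 strengthens Wnt signals and Noggin is a BMP antagonist. The protocol has cells sorted before RNA isolation in all groups, and names no gate or marker for the sort. The labels do not state whether differentiation cultures held the inhibitor, what expansion medium contained, or the dogs' breed, age or number. They also do not say whether replicates came from separate dogs or cultures, so p-values measure the spread between these libraries, which may be technical.

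Total counts ran from 86301 (interfollicular epidermis replicate 2) to 4822410 per library, and mitochondrially encoded transcripts took 5.35 to 26.9% of counts. Follicles and interfollicular epidermis differed in the markers of hair and of suprabasal keratinocytes. The 9 hair shaft and inner sheath markers summed to 6285 and 7882 CPM in follicles and to 77.1 and 599 in interfollicular epidermis, while the 10 suprabasal keratinocyte markers summed to 3806 and 4291 in follicles and to 19100 and 22200 in interfollicular epidermis. Markers of other cells were also counted in the tissues. The 9 fibroblast markers summed to 4406 and 7298 CPM in follicles, 1264 and 3664 in interfollicular epidermis and 3525 and 6104 in whole skin. Among organoids, the later interfollicular library stood apart, with 979.5 CPM of hair markers and 709 of fibroblast markers against 148 and 136.5 in the early one. Levels are in CPM (counts relative to a fixed library total) scaled by TMM, a normalisation that aligns most genes between libraries. They were not compared between genes, since how well the 3′ end of each transcript was captured was not tested.

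Counts per library lay at 51 to 3142 for COL17A1, 37 to 2838 for ITGA6, 27 to 2616 for LAMA3, 14 to 1990 for ITGA3 and 33 to 1889 for PLEC. They were lower for LAMB3 (5 to 410), COL7A1 (2 to 384) and DST (2 to 104). ITGB4, the partner of ITGA6 in the hemidesmosome, was almost not counted: 71 counts in all 23 libraries, at most 12 in a library and 0 in 7 of them. It was below the filter on low counts and was not tested, so 8 of the 9 members were tested. ITGB4 stood at 0 in both interfollicular tissue libraries and both interfollicular organoid libraries. The limit that a count of 0 allows there (3 counts of the total) was 9.12 and 35.5 CPM in tissue and 6.36 and 13.6 CPM in organoids, against a highest ITGB4 level of 8.59 CPM in any library. A difference in ITGB4 between tissues or sources was therefore not detectable in these counts. ITGA6 had 14997 counts in the same libraries. Whether the authors' counting captured the 3′ end of the ITGB4 transcript was not tested, so the ITGB4 values may not give its level. The limits cover counting error only. The reference used here lists 27 transcript models for DST, 5 for LAMB3, 4 for ITGB4 and 2 for ITGA6. The files give 1 value per gene, so the epithelial form of DST was not separated from the neuronal and muscle forms.

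**Figure D1:**
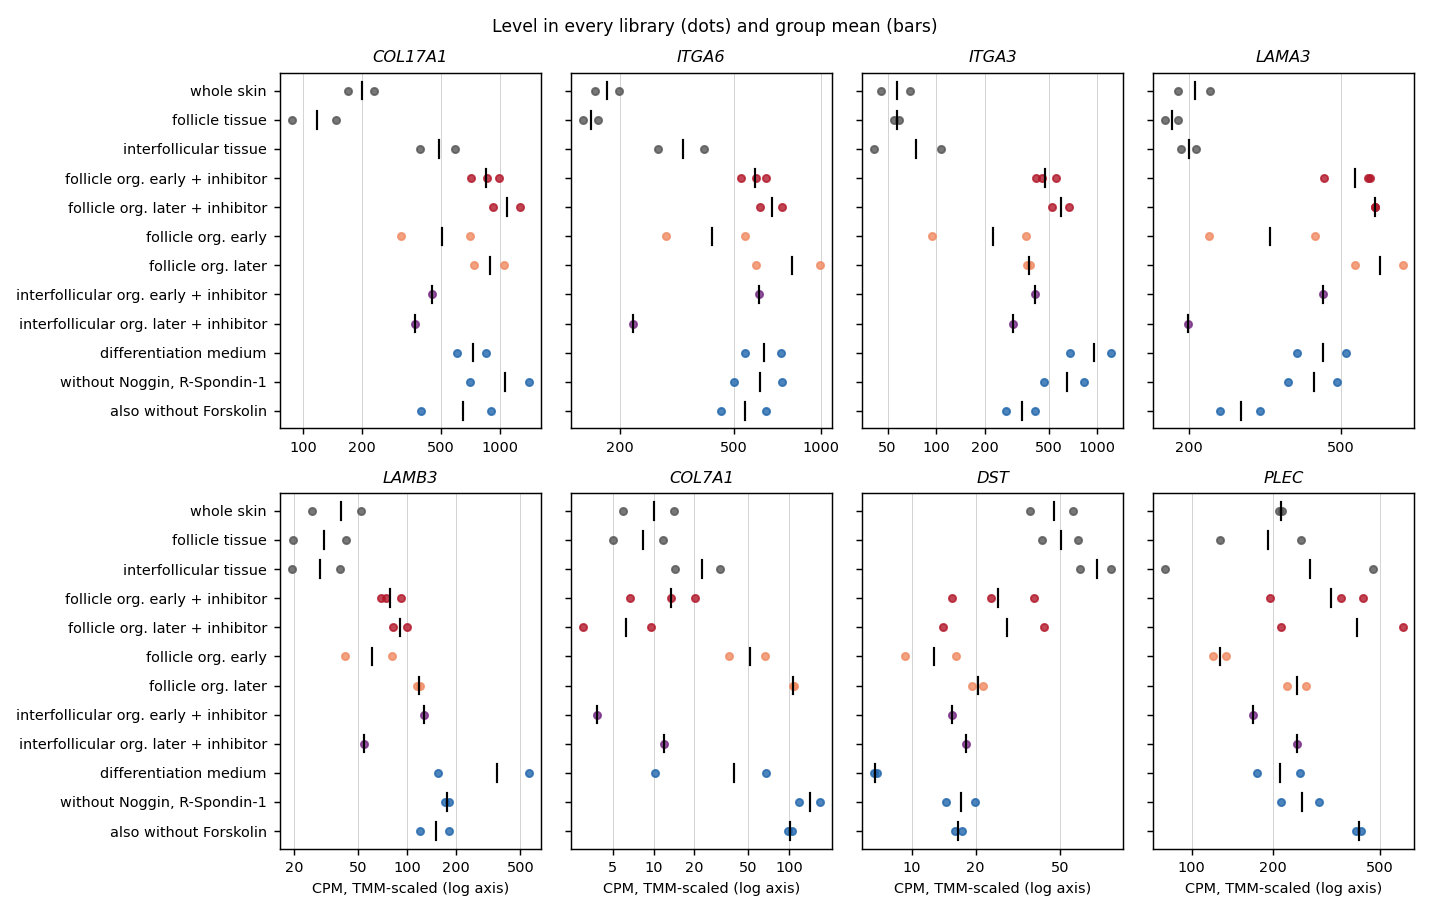
Level of each of the 8 tested members in each library, in TMM-scaled CPM on a log axis, by group, with a point per library and a bar at the group mean. COL17A1, ITGA3, ITGA6 and LAMA3 sit higher in all 9 follicle organoid libraries than in the 2 follicle tissue libraries, DST is at its highest in tissue, and COL7A1 splits the follicle organoids by inhibitor.

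The first comparison set the source tissues against each other, hair follicles against interfollicular epidermis. COL17A1 was lower in follicles: it stood at 147 and 87.2 CPM there, at 591 and 393 CPM in interfollicular epidermis and at 228 and 169 CPM in whole skin. Each follicle library was below each library of the other tissues. The difference from interfollicular epidermis was -2.09 ± 0.50 (log2 change ± SE, adjusted p = 0.0217, edgeR's quasi-likelihood test with Benjamini-Hochberg adjustment over all genes). COL17A1 was the 1 member called, at an adjusted p under 0.05, of 8 tested, where 2.8% of all genes were called (1.15 to 1.76% without 1 of the 4 libraries). Its call was lost without either follicle library (-2.52 and -1.73) or without interfollicular replicate 1 (-1.77).

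ITGA6 stood at 168 and 148 CPM in follicles and at 270.4 and 393 CPM in interfollicular epidermis (-1.06 ± 0.40, adjusted p = 0.185, edgeR). COL7A1 stood at 11.8 and 5.02 CPM against 14.5 and 30.8, and DST at 60.3 and 40.8 against 86.9 and 61.7. The COL7A1 levels rest on 9 and 8 counts in follicles and on 6 and 4 in interfollicular epidermis. For DST, the 61.7 CPM rests on 8 counts. In all, 5 of the 8 tested members had every follicle library below every interfollicular library, where 49.4% of all genes did not overlap in either direction. LAMA3, the laminin alpha 3 chain, stood at 173 and 187 CPM in follicles, 191 and 208 CPM in interfollicular epidermis and 228 and 187 CPM in whole skin (-0.14 ± 0.38 for follicles against interfollicular epidermis, and -0.51 with scaling to library totals). LAMB3, the beta 3 chain, stood at 30.8 CPM in follicles and 28.9 CPM in interfollicular epidermis on average, 0.32 by the fit and -0.02 with library totals. PLEC ranged from 79.7 to 470.1 CPM within interfollicular epidermis alone, where replicate 2 rests on 86301 counts. The median of the 8 members was -0.54 beside 0.21 over all genes tested, and the latter moved to -0.10 with scaling to library totals. Each library pools many cells, so here and below fewer cells of a type and less RNA per cell cannot be told apart. The 9 fibroblast markers summed to 4406 to 7298 CPM in follicles and to 1264 to 3664 CPM in interfollicular epidermis, and their part in these values was not tested.

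Of the other basement membrane genes, 2 of 17 tested rose in follicles and 0 fell. NID1, a linker of laminin to collagen IV, stood at 112 against 16.2 CPM (2.76 ± 0.75, adjusted p = 0.0483, edgeR), and LAMA2, the laminin chain of muscle and nerve, at 24.8 CPM against 0 counts, at least 3.49-fold higher. Of the integrin, tetraspanin and syndecan partners, 0 of 12 were called by edgeR, as were 0 of 13 focal adhesion genes, 0 of 12 processing enzymes and 0 of 8 basal keratinocyte genes.

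Against whole skin, 0 of 8 members were called in follicles by edgeR, DESeq2 or voom, where 0% of all genes were called by edgeR, and 0 had an unadjusted p under 0.05. COL17A1 and LAMA3 had both follicle libraries below both skin libraries (31.3% of all genes did not overlap). For LAMA3 the nearest libraries were almost equal, at 186.962 CPM in follicles and 187.075 CPM in skin. Interfollicular epidermis against whole skin called 0 of 8 members by any of these tools (1.56% of all genes by edgeR), and COL17A1 and ITGA6 had an unadjusted p under 0.05. COL17A1 was at 1.31 ± 0.48 (adjusted p = 0.230, edgeR) and ITGA6 at 0.86 ± 0.40 (adjusted p = 0.362). Both, with COL7A1 and DST, had each interfollicular library above each skin library, so 4 of 8 did not overlap (46.4% of all genes). For COL7A1 the nearest libraries stood at 14.5 and 14.1 CPM, on 6 and 22 counts. For DST they stood at 61.7 and 57.5 CPM, on 8 and 90 counts. COL4A2, a chain of the basement membrane collagen IV, was at 0 counts in interfollicular epidermis and at 47.4 CPM in skin, at least 6.67-fold lower.

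The 9 libraries of follicle organoids in expansion medium were compared with the 2 of follicle tissue to ask which parts of the adhesion machinery the cultures hold. Both integrin alpha chains, collagen XVII, collagen VII and both measured laminin-332 chains rose, and DST fell. That is 6 members higher and 1 lower of 8 tested, where 28% of all genes were called, 9.03% higher and 19% lower. Without follicle tissue replicate 1 or 2, 16.7 and 14.1% of all genes were called. The median was 1.65, beside 0.00 over all genes. The latter moved by -0.17 with DESeq2's size factors and by -0.18 with library totals, and all 7 kept direction and call under both.

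COL17A1 ranged from 316 to 1268 CPM over the 9 organoid libraries, with a median of 860.0, against 147 and 87.2 CPM in tissue. Every organoid library was above both tissue libraries. The change was 2.80 ± 0.45 (837 against 117 CPM, adjusted p = 5.85e-05, edgeR). ITGA6 ranged from 289 to 997 CPM with a median of 595.5, against 168 and 148 CPM in tissue (1.94 ± 0.35, adjusted p = 0.000201). ITGA3 ranged from 94.6 to 669 CPM with a median of 414, against 55.0 and 59.0 CPM (2.79 ± 0.49, adjusted p = 0.000142), with its lowest library the early replicate 1 without inhibitor. LAMA3 ranged from 225 to 726 CPM with a median of 589, against 173 and 187 CPM (1.51 ± 0.31, adjusted p = 0.000824). These 4 members did not overlap between tissue and organoids, against 34.5% of all genes in either direction, and were called in every setting run, the settings without 1 library included.

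LAMB3, the laminin beta 3 chain, ranged from 41.3 to 120 CPM in the organoids with a median of 81.7, against 19.7 and 42.0 CPM in tissue. Its ranges met at their edge, and the change was 1.41 ± 0.44 (adjusted p = 0.0201, edgeR), lost without follicle tissue replicate 1 (1.03, adjusted p = 0.245). COL7A1 stood at 44.7 against 8.41 CPM on average (1.78 ± 0.59, adjusted p = 0.0281), and organoid libraries lay on both sides of the tissue libraries. With the inhibitor organoids alone the COL7A1 change was 0.29 (adjusted p = 0.784), and it was also not called without follicle tissue replicate 2 (1.16) or without later inhibitor replicate 1 (1.51).

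DST ranged from 9.33 to 42.0 CPM in the organoids with a median of 19.2, against 60.3 and 40.8 CPM in tissue, and 1 organoid library lay between the tissue values. It fell by 1.23 ± 0.34 on the log2 scale (adjusted p = 0.00969, edgeR), which was not called without follicle tissue replicate 1 (-0.92) or with the inhibitor organoids alone (-0.88, adjusted p = 0.0942). PLEC, the other plaque protein, ranged from 120 to 606 CPM with a median of 225 against 256 and 127 CPM in tissue, so its ranges overlapped (0.42 ± 0.46, adjusted p = 0.538).

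The cell mix moved with these changes. The 4 basal keratinocyte markers KRT5, KRT14, TP63 and CDH3 summed to 8801 and 9000 CPM in follicle tissue and to 43200 to 72060 CPM in the follicle organoids. Fibroblast markers summed to 4406 to 7298 CPM in tissue and to 50.8 to 486 CPM in organoids, with PDGFRA at 0 counts in 3 of the 4 organoid groups. Hair shaft and inner sheath markers summed to 6285 and 7882 CPM in tissue and to 43.98 to 80.25 CPM in organoids. Suprabasal keratinocyte markers summed to 3806 and 4291 CPM in tissue and to 4150 to 35420 CPM in organoids. The part of these cell types in the members' changes was not tested.

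Among the genes around the members, the list of other basement membrane components went down: 10 of 17 fell and 0 rose, with a median of -1.23. PXDN, a peroxidase that cross-links collagen IV, stood at 1.55 against 48.9 CPM (-5.16 ± 0.39, adjusted p = 7.03e-09, edgeR), NID1 at 5.20 against 112 CPM (-4.52) and the laminin chain LAMA4 of vessels at 1.04 against 38.0 CPM (-5.31). Of the keratin partners and basal keratinocyte genes 5 of 8 rose and 0 fell, among them the keratins KRT14 (2.90 ± 0.49) and KRT5 (2.76 ± 0.51), to which the hemidesmosome attaches. Of the integrin partners 1 of 12 rose, ITGB6 (1.89 ± 0.42), and 1 fell, ITGB8 (-4.29 ± 0.73), both beta chains that pair with alpha v. In the focal adhesion list 2 of 13 rose, TNS4 (2.64) and FERMT1, or kindlin-1 (1.84), and 3 fell, among them TNS1 (-3.66) and FERMT2, or kindlin-2 (-3.68). In the list of processing enzymes 5 of 12 rose, such as P4HB, a subunit of the enzyme that hydroxylates collagen prolines (1.02), and ADAM10, a membrane sheddase (1.10), and 1 fell, PCOLCE (-4.16), an enhancer of procollagen processing.

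**Figure D2:**
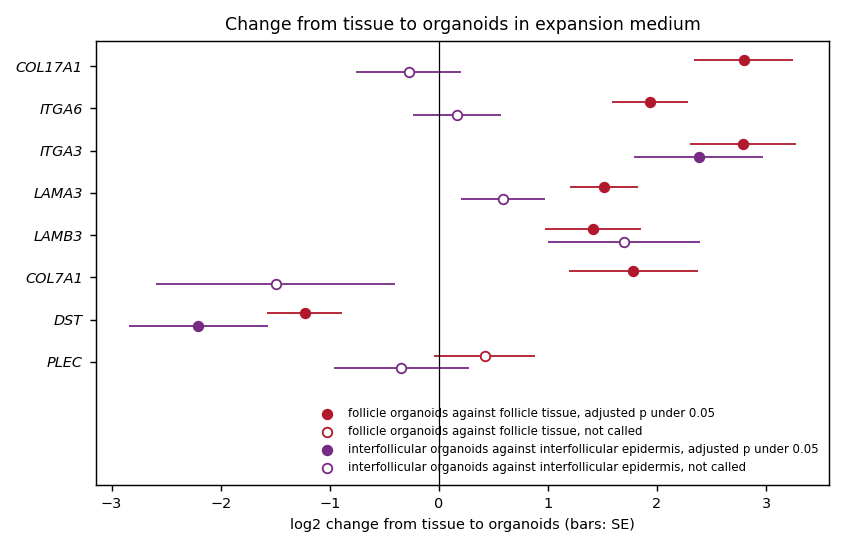
Log2 change ± SE of the 8 tested members from tissue to organoids, for follicle and for interfollicular sources. COL17A1 is at 2.80 for follicles and at -0.28 for interfollicular epidermis, whereas ITGA3 is above 2 for both and DST below -1 for both. DST rests on 8 and 3 counts in the interfollicular organoid libraries.

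For interfollicular epidermis, its 2 organoid libraries were compared with its 2 tissue libraries. ITGA3 rose and DST fell, as in the follicle cultures, so 2 of 8 members were called, where 11.3% of all genes were (4.31% without interfollicular tissue replicate 1). ITGA3 stood at 412 and 300.4 CPM in the early and later organoids and at 41.0 and 108 CPM in tissue, without overlap (2.38 ± 0.59, adjusted p = 0.0120, edgeR). DST stood at 15.4 and 18.0 CPM against 86.9 and 61.7 CPM, again without overlap (-2.21 ± 0.64, adjusted p = 0.0286). These DST levels rest on 8 and 3 counts in the organoids and on 36 and 8 counts in tissue. LAMB3 (127 and 54.1 against 19.3 and 38.5 CPM, adjusted p = 0.122) and COL7A1 (3.85 and 12.02 against 14.5 and 30.8 CPM, adjusted p = 0.399) did not overlap either, so 4 of 8 did not, where 46.8% of all genes did not. Neither was called, and COL7A1 rests on 2 counts in each organoid library.

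The other members were not called. COL17A1 was at 450.0 and 373 CPM in the organoids and at 591 and 393 CPM in tissue (-0.28 ± 0.48, adjusted p = 0.758, edgeR). ITGA6 was at 609.7 and 222 against 270.4 and 393 CPM (0.17 ± 0.41, adjusted p = 0.836), and LAMA3 at 448 and 198 against 191 and 208 CPM (0.59 ± 0.39, adjusted p = 0.346). For each of these the early organoid library was above the later one, which is the library that stood apart by its hair and fibroblast markers. The calls of ITGA3 and DST held in 8 and 7 of 12 alternative settings, by edgeR unless voom is named. Without interfollicular tissue replicate 1 ITGA3 was at 1.71 (adjusted p = 0.205) and DST at -1.87 (adjusted p = 0.259). In a fit to the groups compared they were at 2.19 (adjusted p = 0.108) and -2.32 (adjusted p = 0.0724), and with the later organoids only at 2.15 (adjusted p = 0.0594) and -2.09 (adjusted p = 0.200). ITGA3 was also not called with scaling to library totals (1.76, adjusted p = 0.0548), which moved the median of all genes by -0.55. DST was also not called with the early organoids only (-2.32, adjusted p = 0.0587) or by voom (-2.10, adjusted p = 0.0513).

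Of the basal keratinocyte genes, 4 of 8 rose in interfollicular organoids, among them CDH3, or P-cadherin (3.05 ± 0.51, adjusted p = 0.000516, edgeR), and JAG2, a Notch ligand (2.62 ± 0.57). FURIN, a protease that activates many secreted proteins, rose by 2.57 ± 0.50 (313 against 35.0 CPM). The partners SDC1, a heparan sulfate proteoglycan (1.78), and BSG, or basigin (1.79), rose, and COL4A5, a chain of basement membrane collagen IV, fell (-1.92).

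The change from tissue to culture was then compared between the sources, within inhibitor groups only. It differed for COL17A1, by 3.33 ± 0.66 (adjusted p = 0.00320, edgeR), the 1 member called of 8, where 3.94% of all genes were called. Inhibitor organoids from follicles stood at 974 CPM against 117 CPM in follicle tissue, and those from interfollicular epidermis at 411 CPM against 492 CPM. By library, COL17A1 was at 716 to 1268 CPM in the 5 follicle organoid libraries and at 373 and 450.0 CPM in the 2 interfollicular ones, so follicles had the lower level in tissue and the higher level in culture. With the early organoid groups only the COL17A1 difference was 3.02 (adjusted p = 0.0893). ITGA6 followed at 1.83 ± 0.53 (adjusted p = 0.0568), and was called under library totals (2.20), the stricter filter, DESeq2, voom and with the later groups only (2.66). LAMA3 was at 1.10 ± 0.49 (adjusted p = 0.274), LAMB3 at -0.30 and ITGA3 at 0.83. Of the 5 lists of other adhesion genes, 0 genes were called by edgeR.

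Set directly against follicle organoids with the inhibitor, interfollicular organoids had 0 of 8 members called by edgeR, DESeq2 or voom (6.35% of all genes by edgeR), and 3 had an unadjusted p under 0.05. Those 3 were LAMA3 (-0.96 ± 0.33, adjusted p = 0.0975, edgeR), COL17A1 (-1.24 ± 0.43, adjusted p = 0.104) and ITGA6 (-0.78 ± 0.35, adjusted p = 0.260). LAMA3, COL17A1 and ITGA3 did not overlap, each lower in the interfollicular libraries (23.1% of all genes did not overlap in either direction). COL17A1 was called with no filter on low counts (-1.33) and in a fit to these groups alone (-1.19). LAMA3 was called with the later groups only (-1.63), which rest on the 1 later interfollicular library that stood apart by its markers. FURIN was the 1 gene called among the 5 lists, at 313 against 31.1 CPM (2.73 ± 0.34, adjusted p = 7.61e-06).

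Follicle organoids with and without the Tgf-beta inhibitor were compared over both passages. COL7A1 was lower with it, and it was the 1 member called of 8, where 2.64% of all genes were called and 0.75% were called lower (for 6 of the 9 libraries, leaving it out brought the share called to 1.07 to 1.67%). With the inhibitor, COL7A1 stood at 6.73, 20.1 and 13.5 CPM early and at 9.57 and 2.99 CPM later. These levels rest on 10, 35 and 59 counts early and on 13 and 3 counts later. Without the inhibitor the levels were 36.0 and 66.7 CPM early and 108 and 107 CPM later. All 5 inhibitor libraries were below all 4 libraries without it, and the change was -2.98 ± 0.41 (9.86 against 79.5 CPM, adjusted p = 0.000403, edgeR).

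**Figure D3:**
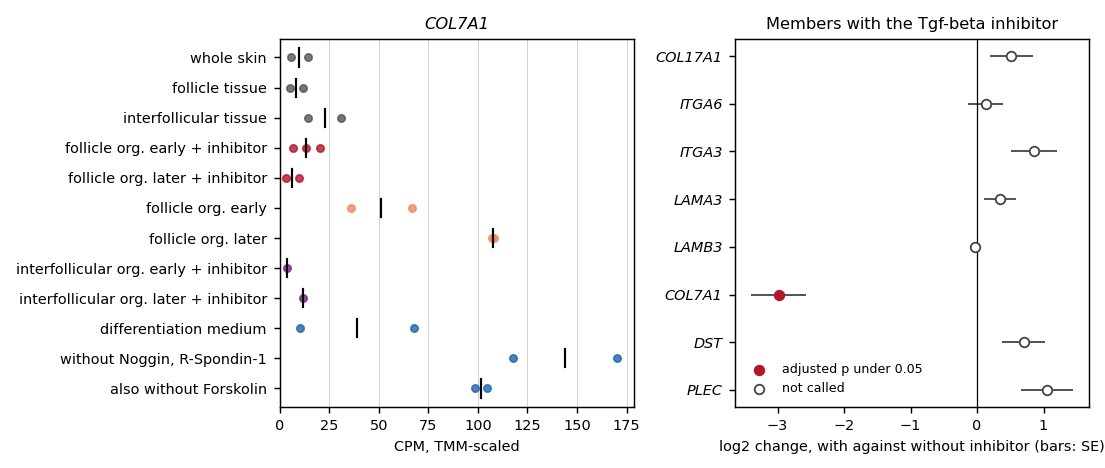
Left, COL7A1 in each library of the 12 groups, in TMM-scaled CPM, among them early and later follicle organoids with and without the Tgf-beta inhibitor. Right, log2 change ± SE with against without inhibitor for the 8 tested members. COL7A1 is at -2.98, and the other 7 lie between -0.03 and 1.05, with no error bar for LAMB3, whose change is under 0.1.

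At early passage the COL7A1 change was -1.95 (adjusted p = 0.0573, edgeR) and at later passage -4.01 (adjusted p = 0.00642). The difference between these passages was -2.06 ± 0.83 (adjusted p = 0.9999, unadjusted p = 0.0219), so a dependence on passage was not shown. Leaving out single libraries moved the pooled change between -3.54 and -2.73, with the call kept each time. Fibroblast markers, of cells that also make collagen VII, summed to 76.1 to 132 CPM with and 234 to 486 CPM without the inhibitor in early organoids. In later ones they were at 50.8 and 53.9 CPM with and at 51.4 and 61.4 CPM without it. Their part in the COL7A1 change was not tested.

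ITGA3 did not overlap either, with 414 to 669 CPM with the inhibitor and 94.6 to 382 CPM without it (0.86 ± 0.34, adjusted p = 0.227, edgeR), so 2 of 8 members did not overlap, where 8.41% of all genes did not. It was called without early replicate 2 of the group without inhibitor (1.47, adjusted p = 0.0414). PLEC stood at 369 against 186 CPM (1.05 ± 0.39, adjusted p = 0.184), and it was called with no filter (adjusted p = 0.0228). DST (0.70 ± 0.32), COL17A1 (0.52 ± 0.32), LAMA3 (0.34 ± 0.24) and ITGA6 (0.13 ± 0.26) were not called, and LAMB3 was at 84.4 against 89.3 CPM. Around the members, SDC4, a syndecan of focal adhesions (1.68 ± 0.40, adjusted p = 0.0240), FERMT1 (1.22 ± 0.25, adjusted p = 0.00782) and ACTN4, an actin cross-linker (1.09 ± 0.26, adjusted p = 0.0248), rose with the inhibitor. These 3 were the genes called among 62 tested genes of the 5 lists.

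Later and early follicle organoids differed in 0 of 8 members by edgeR, DESeq2 or voom (0.355% of all genes by edgeR), and 2 had an unadjusted p under 0.05. Those were LAMA3 (625 against 436 CPM, 0.56 ± 0.24, adjusted p = 0.603) and ITGA6 (735 against 504 CPM, 0.56 ± 0.26, adjusted p = 0.669). The ranges of all 8 overlapped (3.36% of all genes did not). The fitted changes were at 0.37 to 0.64 for 7 members and at 0.00 for COL7A1, whose sign changed between settings, with a median of 0.56 beside -0.03 over all genes. The mean level of COL7A1 was 51.3 CPM early and 108 CPM later without the inhibitor, and 13.4 CPM early and 6.28 CPM later with it. For the inhibitor's effect at later against early passage, 0 of 8 members were called by edgeR, DESeq2 or voom (0% of all genes by edgeR), and COL7A1 was the 1 member at an unadjusted p under 0.05.

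Later follicle organoids in the differentiation media (6 libraries) were compared with later organoids in expansion medium without the inhibitor (2). The 6 differentiation libraries list 18113 entries each, and the 17 tissue and expansion libraries list 20448. Effects of the medium and of whatever lies behind that difference cannot be told apart here. None of the members was called by edgeR or DESeq2 (0 of 8, where 14.5% of all genes were called by edgeR, and 4.25 and 6.22% without replicate 1 or 2 of the expansion group), with LAMA3 at an unadjusted p under 0.05, and voom called LAMA3. LAMA3 was at 240.4 to 517 CPM in the differentiation media, with a median of 373, against 544 and 726 CPM (-0.76 ± 0.28, adjusted p = 0.0715, edgeR). LAMB3 was at 121 to 565 CPM, with a median of 175, against 116 and 120 CPM (0.83 ± 0.42, adjusted p = 0.181). By TMM these chains of the same laminin did not overlap between media and lay in opposite directions (25.3% of all genes did not overlap). For LAMB3 the nearest libraries stood at 120.8 and 119.8 CPM, and with scaling to library totals its ranges overlapped (113.0 against 113.4 CPM). ITGA3 was at 270.5 to 1222 CPM against 369 and 382 CPM (0.66 ± 0.42, adjusted p = 0.303), COL17A1 at 399 to 1409 CPM against 736 and 1045 CPM, and PLEC at 175 to 426 CPM against 266 and 225 CPM.

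COL7A1 in the differentiation media ranged from 10.3 to 170.2 CPM, with a median of 102, against 107 and 108 CPM (-0.33 ± 0.43, adjusted p = 0.646, edgeR). Its direction depended on the reference: with the later groups with and without inhibitor pooled as reference it was 1.68 (adjusted p = 0.00563), LAMA3 was -0.74 (adjusted p = 0.0238) and LAMB3 1.02 (adjusted p = 0.0280), all 3 called. LAMB3 was also called without replicate 1 in complete differentiation medium (1.06, adjusted p = 0.0458).

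Among the genes around the members, CD9, a tetraspanin that associates with laminin-binding integrins, fell by 2.58 ± 0.28 on the log2 scale (167 against 987 CPM, adjusted p = 1.05e-05, edgeR), while the tetraspanin CD81 rose (1.66 ± 0.39, 2924 against 914 CPM). Of the other basement membrane genes 4 of 17 rose and 2 fell. COL4A6, a collagen IV chain (1.93 ± 0.49), AGRN, a heparan sulfate proteoglycan (1.17), NID1 (2.00) and COL18A1 (1.47) rose, and LAMA5, the alpha chain of laminin-511 (-2.68 ± 0.57), and COL4A5 (-1.63) fell. KRT5 fell (-1.28 ± 0.41, adjusted p = 0.0391). None of the 13 focal adhesion genes was called by edgeR.

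Withdrawal of Noggin and R-Spondin-1 from differentiation medium called 0 of 8 members and 0% of all genes by edgeR, and 0 members by DESeq2 or voom. COL7A1, the 1 member at an unadjusted p under 0.05, stood at 68.0 and 10.3 CPM in complete medium and at 118 and 170.2 CPM after withdrawal (1.73 ± 0.59, unadjusted p = 0.00830, adjusted p = 1, edgeR). The 10.3 CPM of COL7A1 rests on 3 counts, and leaving out single libraries moved its change between 1.09 and 3.80. DST stood at 6.63 and 6.85 CPM and at 14.4 and 19.7 CPM, on 2 to 8 counts per library. These were the 2 members without overlap (21.5% of all genes). ITGA3 stood at 673 and 1222 CPM in complete medium and at 466 and 829 CPM after withdrawal (-0.55 ± 0.50, adjusted p = 1), lower at each replicate number but with overlap. Replicate 2 in complete medium stood apart from replicate 1, with LAMB3 at 565 against 154 CPM, ITGA3 at 1222 against 673 and COL7A1 at 10.3 against 68.0.

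Further withdrawal of Forskolin also called 0 of 8 members and 0% of all genes by edgeR, and 0 members by DESeq2 or voom, with 0 members at an unadjusted p under 0.05. ITGA3 stood at 466 and 829 CPM before and at 410.2 and 270.5 CPM after (-0.92 ± 0.51), LAMA3 at 363 and 489 and at 308 and 240.4 CPM (-0.63 ± 0.37), and COL7A1 at 118 and 170.2 and at 105 and 98.7 CPM (-0.50 ± 0.57). PLEC stood at 298 and 215 CPM before and at 426 and 408 CPM after (0.70 ± 0.59). These 4 members did not overlap, 3 lower and 1 higher (22.9% of all genes did not). Both withdrawals share the libraries without Noggin and R-Spondin-1, so their values are not independent.

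**Figure D4:**
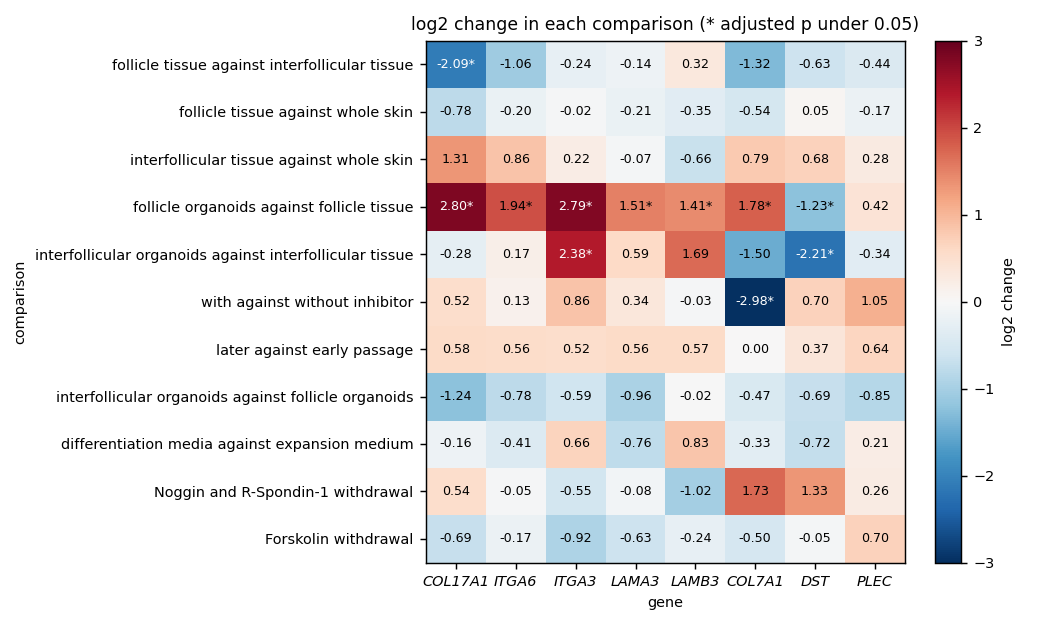
Log2 change of the 8 tested members in 11 of the 13 comparisons, as colour and number, with called changes starred. The 2 comparisons of a difference between changes are not drawn, and 7 of the starred changes are in follicle organoids against follicle tissue.

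Across the 12 groups the members fell into different orders. These orders span the differentiation libraries and the others, which differ in the entries they list. Collagen XVII was highest in later inhibitor organoids from follicles (1094 CPM) and in differentiation medium without Noggin and R-Spondin-1 (1059 CPM), neighbours that did not differ beyond the spread of their libraries, and lowest in follicle tissue (117 CPM). ITGA3 was highest in complete differentiation medium (948 CPM), again within the spread of the next group, that without Noggin and R-Spondin-1 (648 CPM), and lowest in the 3 tissues (57.0 to 74.5 CPM). ITGA6 and LAMA3 were highest in later organoids without inhibitor (795 and 635 CPM), within the spread of later inhibitor organoids (675 and 615 CPM). Both were lowest in follicle tissue (158 and 180.0 CPM) by TMM, and in later interfollicular organoids with scaling to library totals. LAMB3 was highest in the 3 differentiation media (150.5 to 360 CPM). COL7A1 was highest in differentiation medium without Noggin and R-Spondin-1 (144 CPM, libraries at 118 and 170.2 CPM). Next, with each library below both of those, came later organoids without inhibitor (108 CPM) and the medium that also lacked Forskolin (102 CPM). The Forskolin step was not called. Early interfollicular organoids (3.85 CPM, on 2 counts) and later inhibitor organoids from follicles (6.28 CPM) were at the low end of COL7A1, in an order that the counts do not settle. DST ran the other way, highest in interfollicular epidermis (74.3 CPM), follicles (50.5 CPM) and whole skin (46.7 CPM) and lowest in complete differentiation medium (6.74 CPM).

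Over the 12 group means of log2 CPM, Pearson's r was 0.91 between COL17A1 and ITGA6, 0.90 between ITGA6 and LAMA3 and 0.90 between ITGA3 and LAMB3, but 0.69 between the laminin chains LAMA3 and LAMB3. COL7A1 had an r of 0.16 to 0.43 with the other members apart from DST, and DST was negative with each of the other 7, down to -0.84 with LAMB3. These correlations are descriptions over groups that share the split between tissue and culture. By the same measure over 4954 genes at 20 CPM or more, the genes most like COL17A1 were the kinase NUAK2 (0.92) and ITGA6 (0.91). Among those most like DST was SYNE2, a nuclear envelope spectrin repeat protein (0.92), and those most like ITGA3 were SRP72 (0.98) and NQO1 (0.97). PLEC had the weakest best match, SH3BGRL3 (0.82).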

How the data were processed

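CEL-seq2 libraries of sorted cells were sequenced on a NextSeq500, per the labels' protocols. Alignment tools listed per the submitters' processing notes are BWA 0.6.2-r126, with the genome build CanFam3.1. Annotation, counting tool and any collapsing of molecular barcodes: not given in the sources used here. The deposited values are counts per gene, 4.91 to 10.65% of them in a library with a fraction, so these values were handled like estimated counts and rounded. No member had a fraction. Entries naming no gene (0.461 to 2.158% of counts) were left out.

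Counts were fitted with edgeR 4.0.16 in R 4.3.3: the tool's default low-count filter (minimum count 10) on the 12 groups, TMM scaling, a quasi-likelihood model with a mean per group (11 residual degrees of freedom), and Benjamini-Hochberg adjustment over 9873 genes, or 9717 for comparisons with differentiation libraries. Pooled groups enter as the plain mean of their log2 means. Calls were made at an adjusted p under 0.05. The SE is the log2 change divided by the square root of F, and is not given for changes under 0.1. Interfollicular organoid groups have 1 library each and are assumed to vary like the others. Counts of 0 allow 3 counts of the total, and folds against a group at 0 use 3 counts over that group. The script was tested on simulated data.

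The 5 lists of related genes (79 genes, 62 tested) hold integrin partners, other basement membrane components, focal adhesion genes, processing enzymes and basal keratinocyte genes. Named from a list are the called genes of smallest p, at most 4 per direction; some genes that the naming rules select are not reported here. The members and lists were chosen with earlier results of these data known. Alternatives were DESeq2 1.42.0, voom (limma 3.58.1), other scalings and filters, a replicate block, fits to the groups compared and leaving out each library. Fits to early or later organoids only were chosen after seeing the data. No genome or sequence was used, and promoter motifs were not searched.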

Additional observations from a re-analysis of the deposited data

Results flagged for a closer look

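COL17A1, the hemidesmosome collagen, changed differently on the way from tissue to culture in the 2 sources: the follicle change exceeded the interfollicular change by 3.33 on the log2 scale (adjusted p = 0.00320, edgeR's interaction contrast, n = 5 and 2 organoid libraries and 2 and 2 tissue libraries). Over the settings without 1 library it ran from 2.94 to 3.72. Interfollicular organoids have 1 library per passage, and the later one also held 979.5 CPM of hair markers and 709 CPM of fibroblast markers. With the early groups alone, which leave that library out, the difference was 3.02 and was not called (adjusted p = 0.0893). Groups of 4 or more libraries, in which a single outlying library could be tested, do not occur in the series.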

How the results depend on the processing

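Of 104 member results 12 were called and 92 were not, and 0 of the 12 changed sign under an alternative. Of the 92, 9 were called under at least 1 alternative and 40 changed sign. The number of members called moved as follows. For follicle organoids against their tissue (7) it was 5 with inhibitor organoids only and 5 to 7 without a library: 5 without follicle tissue replicate 1, and 6 without its replicate 2 or without later inhibitor replicate 1. For interfollicular organoids against their tissue (2) it was 1 with library totals, 1 with voom, 1 with early organoid groups only, 0 with later ones only, 0 in a fit to the groups compared, and 0 to 2 without a library. For the difference in culture change between sources (1) it was 2 with library totals, the stricter filter, DESeq2, voom or later groups only, and 0 with early groups only. For the inhibitor (1) it was 2 with no filter, 0 with early groups only, and 1 to 2 without a library. For interfollicular against follicle organoids (0) it was 1 with no filter, in a fit to the groups compared, or with later groups only. For follicle against interfollicular tissue (1) it was 2 with DESeq2 and 0 to 1 without a library. For differentiation (0) it was 1 with voom, 3 with both later groups as reference and 0 to 1 without a library, and with that reference COL7A1 reversed to 1.68. Where no cause is shown by fewer libraries or genes, the cause was not tested.

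Counts over all genes moved more. With no filter they rose from 276 to 482 (follicle against interfollicular tissue), 154 to 289 (interfollicular tissue against skin), 261 to 638 (inhibitor), 35 to 172 (passage), and from 0 to 1 (follicle against skin), 39 (inhibitor by passage), 11 (Noggin and R-Spondin-1) and 19 (Forskolin). Fits to the groups compared gave 465 in place of 276, 10 in place of 0, 297 in place of 1115, 21 in place of 35 and 236 in place of 1411 (differentiation). With voom the culture difference called 678 genes in place of 389, and with DESeq2 the passage comparison called 58 and inhibitor by passage 1. Early groups only gave 709, 79, 119 and 60 genes in place of 1115, 389, 261 and 627, later groups only 630 for the culture difference and 31 for the inhibitor, and both later groups as reference 2350. Leaving out 1 library gave 113 to 170 genes in place of 276, 64 to 109 in place of 154, 1387 to 2948 in place of 2764 (lowest without follicle tissue replicate 2, and 1638 without replicate 1), 418 and 920 in place of 1115, 105 to 301 in place of 261, 9 to 53 in place of 35 and 412 to 1656 in place of 1411 (lowest without expansion replicate 1, and 602 without replicate 2).

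With the replicate block the numbers of members called stayed at 7 for follicle organoids and 1 for the inhibitor, and no member call changed; the passage comparison called 18 genes in place of 35. Over all groups, same-numbered libraries did not deviate together in general: r exceeded 0.1 in 6 of 45 group pairs, over a range of -0.34 to 0.44. The 3 differentiation groups did, at 0.34 to 0.44 with each other. With 2 libraries a group, and labels that tie no number to a dog or day, the numbers were not taken to pair libraries. Both withdrawals called 0 members and 0 genes with the block too. Low counts limit ITGB4, and COL7A1 in the tissues and in later inhibitor organoids from follicles. Depth limits COL7A1 and DST in interfollicular organoids, DST in differentiation media and COL7A1 in replicate 2 of complete differentiation medium. It also limits all values of interfollicular tissue replicate 2.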
